A study of Drosophila melanogaster with 18 samples.

Results

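The gene fend (forked end) is described here across the knockdown of 4 chromatin insulator proteins in Kc cells, an embryo-derived cell line of Drosophila melanogaster. It is 1 row, FBtr0071349, of the 16637 transcript rows in the deposited table, and the RefSeq gene table (Release 6 assembly) pairs that identifier with fend, a gene of chromosome X. RefSeq lists 2 transcripts for this gene, and only the row FBtr0071349 is described, so the fend signal below is that of this row. The gene was chosen by its measured log2 signals in these same arrays, those of the knockdowns against control included, so its levels and differences are given as a description with their spread and with no test.

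The series measured RNA on NimbleGen arrays with 1 colour (Cy3) in 18 samples, 2 independent experiments for each of 9 groups. Control cells, titled WT, carried no insulator knockdown but received double-stranded RNA against B-gal. The 4 single knockdowns were BEAF, CP190, CTCF and SuHw, and the 4 double knockdowns were BEAF+CTCF and, for BEAF, CTCF and SuHw, the pair with CP190 (BEAF+CP190, CTCF+CP190, SuHw+CP190). All cells were of the same line and followed a protocol that added double-stranded RNA on each of 3 days before collection on day 4. The sources used here do not give how much of each protein remained, and the rows of the 4 targeted genes are not named in the given gene table, so their levels were not analysed here. That table paired none of the 13 listed markers of blood cells, neurons and muscle with a row as its only symbol. The labelled cell type was thus not checked.

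Insulator proteins bind many sites in the fly genome and shape which enhancers and promoters meet. BEAF, CTCF and SuHw each bind DNA through zinc fingers, and CP190 is a cofactor that sits with all of them. The fend gene encodes a transmembrane protein known from Drosophila embryos, where it acts in the matching of motor axons to their muscles. The protein-coding genes next to it in the RefSeq table are AP-1gamma, which encodes a clathrin adaptor subunit, and CG7065, and their rows are not named in the sources used here.

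The arrays form 2 sets by the way the labels write the cell line. Control, BEAF and CP190 make up the first set of 6 arrays, and the other 6 groups the second set of 12. Across all rows, replicate arrays correlated at 0.998 to 0.999, different groups of a set at 0.989 to 0.998, and pairs across the sets at 0.978 to 0.990. Every group lies in 1 set, so wherever a comparison crosses the sets, knockdown and set cannot be told apart. The table carries no detection call, and the number of arrays limits the precision.

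The signal of fend was highest in control cells and lower in every knockdown array. Control replicate 1 had a log2 signal of 10.56 and replicate 2 of 10.39, a mean of 10.47 ± 0.12 (SD, n = 2). The 16 knockdown arrays ran from 8.51 to 9.79, so they did not overlap with control. The same held for 2061 rows of the table (12.4%) and for 64 of the 500 rows of like control signal (12.8%), defined as the 250 rows just below and the 250 just above fend in mean control signal. fend lay in the middle of the signal range: 60.5% and 58.6% of all rows had a lower signal than fend in the control arrays, against 50.5% to 53.9% in the BEAF and CP190 arrays and 44.8% to 50.9% in the second set. The lower quartile of the arrays was at 5.30 to 5.52, well below any fend value.

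In the first set, where no comparison crosses the sets, fend was lower after each single knockdown and lower with CP190 than with BEAF. BEAF arrays had log2 signals of 9.79 and 9.79 (mean 9.79 ± 0.0021, SD, n = 2). CP190 arrays had 9.36 and 9.34 (mean 9.35 ± 0.012). These replicates lay close together, and the wider spread was that of the 2 control arrays. BEAF knockdown left 62.3% of the control signal, a log2 difference of -0.68 (SE 0.074 from the limma fit over all arrays). Non-overlap with control in that direction was found in 33.4% of rows. CP190 knockdown left 45.8%, a log2 difference of -1.13, where 34.7% of rows were non-overlapping and lower. BEAF arrays lay above CP190 arrays by 0.44 on the log2 scale, with no overlap (32.3% of rows). The full order of control above BEAF above CP190, with no overlap at either step, was shared with 6.77% of rows.

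**Figure D1:**
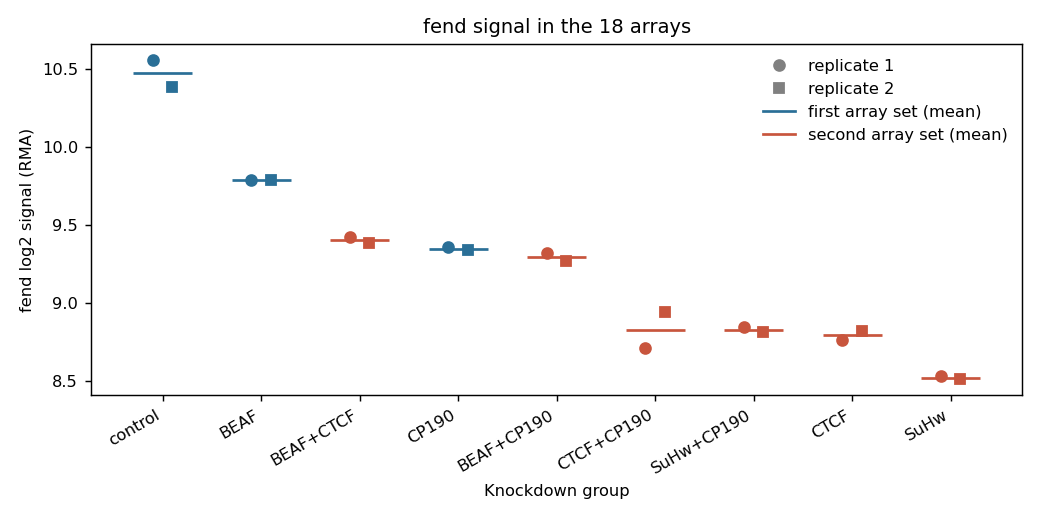
The log2 signal of fend (y axis, RMA values) is shown for both arrays of each of the 9 groups (x axis, ordered by mean), as circles for replicate 1 and squares for replicate 2 with the group mean as a line, blue for the first array set and red for the second. Both control arrays (10.56 and 10.39) lie above all 16 others, and both SuHw arrays (8.53 and 8.51) lie below all others.

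In the second set, fend was lowest with SuHw, intermediate with CTCF and the doubles of CTCF or SuHw with CP190, and highest in the doubles with BEAF. SuHw arrays had log2 signals of 8.53 and 8.51 (mean 8.52 ± 0.013, SD, n = 2). CTCF arrays were at 8.76 and 8.82 (mean 8.79 ± 0.042). Doubles of these proteins with CP190 were at about the CTCF level: SuHw+CP190 arrays had 8.84 and 8.81 (mean 8.83 ± 0.023). CTCF+CP190 arrays had 8.71 and 8.94 (mean 8.83 ± 0.16), the widest spread of any group. The doubles with BEAF were higher. BEAF+CP190 arrays had 9.32 and 9.27 (mean 9.30 ± 0.038), and BEAF+CTCF arrays 9.42 and 9.39 (mean 9.41 ± 0.026).

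Ordered from high to low, the group means ran control, BEAF, BEAF+CTCF, CP190, BEAF+CP190, CTCF+CP190, SuHw+CP190, CTCF and SuHw. CTCF+CP190 and SuHw+CP190 overlapped, with means 0.000275 apart, as did SuHw+CP190 and CTCF. The neighbours BEAF+CTCF and CP190, and CP190 and BEAF+CP190, had means only 0.057 and 0.053 apart, less than the SE of a difference (0.074). Each pair comes from different sets. Neither pair overlapped, as in 36.6% of rows for BEAF+CP190 below CP190, and for the other pair that share was not computed. The remaining neighbours differed by 0.27 to 0.68. The sets themselves overlapped for fend by a narrow margin: both CP190 arrays lay below 9.42, the highest array of the second set, and both BEAF+CTCF arrays lay above 9.34, the lowest of the first. Of the sum of squares of fend over the 18 arrays, 58.2% lay between the sets, 41.0% between groups within a set and 0.781% between replicates. The medians over the like-signal rows were 45.4%, 43.6% and 6.91%.

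All 6 second-set groups lay further below control than BEAF did, and 5 of them further than CP190 did, with BEAF+CTCF as the exception. All of these comparisons cross the sets. SuHw arrays held 25.8% of the control signal (log2 difference -1.95), CTCF 31.1% (-1.68), SuHw+CP190 31.9% (-1.65), CTCF+CP190 31.9% (-1.65), BEAF+CP190 44.2% (-1.18) and BEAF+CTCF 47.7% (-1.07), each with an SE of 0.074. Non-overlap with control in the same direction was found in 38.7%, 36.8%, 37.1%, 35.9%, 36.9% and 36.4% of rows in that order. All 8 differences use the same 2 control arrays, and a change in these arrays moves all of them together.

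Set beside rows of like control signal, whose control means ran from 10.31 to 10.60, fend was toward the low end in every comparison with control. The fewest such rows lay below it with CP190, where 6 of the 500 rows had a lower difference (1.2%, or 0.6% without CP190 replicate 1) and the 5th percentile was -0.73. With BEAF, 35 of the 500 rows were lower (7%, or 4.5% with 100 rows on each side), and the 5th percentile (-0.89) lay below fend. In the second-set groups the like-signal rows spread more widely: 18 rows were lower than fend with SuHw, 21 with CTCF, 20 with CTCF+CP190, 20 with SuHw+CP190, 34 with BEAF+CP190 and 41 with BEAF+CTCF. The medians of the 500 rows lay between 0.032 and 0.075. Over the mean of the 8 differences, which was -1.37 for fend, 21 of the 500 rows were lower. The lowest of these were FBtr0075801 (-3.48) and FBtr0083470 (-3.48), which are not named in the sources used here. Within the first set FBtr0075801 had log2 differences from control of -1.63 with BEAF and -1.15 with CP190, both lower than those of fend, and FBtr0083470 had -0.38 with each, both closer to control. Across the sets both rows were far lower than fend, with second-set means of 5.68 to 6.76 and 5.46 to 6.37.

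**Figure D2:**
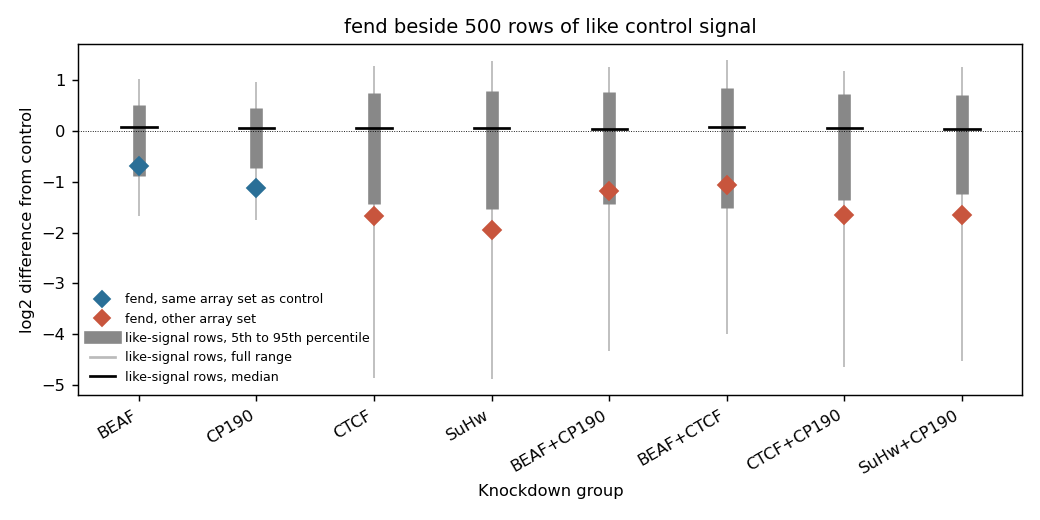
Diamonds give the log2 difference of fend from control (y axis) for each of the 8 knockdown groups (x axis), blue where the group shares the array set of control and red where it does not. Grey bars span the 5th to 95th percentile of the 500 rows of like control signal, thin lines their full range and black ticks their median. The fend value lies below the bar for CP190, CTCF, SuHw, CTCF+CP190 and SuHw+CP190, and within it for BEAF, BEAF+CP190 and BEAF+CTCF.

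The double knockdown of BEAF and CTCF went with a higher fend signal than CTCF knockdown alone. This is the opposite of the direction of BEAF knockdown against control. BEAF+CTCF arrays lay above CTCF arrays by 0.61 on the log2 scale (SE 0.074, range over array pairs 0.57 to 0.66), a 1.53-fold higher signal. Non-overlap in that direction was found in 35% of rows, and 8 of the 500 like-signal rows had a larger difference. BEAF+CP190 arrays lay below CP190 arrays by 0.053 (range of the difference -0.089 to -0.017), but that comparison crosses the sets and the gap is smaller than its SE (36.6% of rows were lower with no overlap). Within the second set, all 4 arrays with BEAF knockdown (mean 9.35, SD 0.069 over 4 arrays) lay above all 8 without it (mean 8.74, SD 0.15 over 8 arrays). These SDs pool arrays of different groups, so they include differences between groups and are not replicate spread. The pattern was shared with 3.24% of rows and with 15 of the 500 like-signal rows. The lowest of the 4 was at 9.27 and the highest of the 8 at 8.94.

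The fend difference seen with CP190 knockdown also varied between backgrounds. CP190 on its own went with the log2 difference of -1.13 from control. CTCF+CP190 and CTCF arrays overlapped, with a difference of 0.037 (SE 0.074, range over array pairs -0.11 to 0.18). The 2 CTCF+CP190 arrays lay on either side of the CTCF arrays, so neither direction can be read from them. SuHw+CP190 arrays lay above SuHw arrays by 0.31 (SE 0.074, range over array pairs 0.28 to 0.33), a 1.24-fold higher signal, which 41 of the 500 like-signal rows exceeded. Non-overlap in that direction was found in 30% of rows. BEAF+CP190 arrays lay below BEAF arrays by 0.49 (log2 difference -0.49, 40.4% of rows), across the sets. In the second set as a whole, arrays with CP190 knockdown ran from 8.71 to 9.32 and those without it from 8.51 to 9.42, so CP190 did not separate them.

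Adding CTCF or SuHw can be compared only across the sets. CTCF went with a log2 difference of -0.38 on BEAF (BEAF+CTCF minus BEAF, 39.2% of rows lower with no overlap) and of -0.52 on CP190 (34.1%). SuHw went with -0.52 on CP190 (36.8%). Each is smaller than the same protein's difference from control, -1.68 for CTCF and -1.95 for SuHw. Directly compared within the second set, SuHw arrays lay below CTCF arrays by a log2 difference of -0.27 (SE 0.074), with no overlap (33.6% of rows). All 4 doubles lay above SuHw with no overlap, by 0.89 for BEAF+CTCF (38.5% of rows), 0.78 for BEAF+CP190 (36% of rows) and 0.31 for CTCF+CP190 (36.3% of rows). The last was 0.42 without CTCF+CP190 replicate 1 and 0.19 without replicate 2, while the 0.31 of SuHw+CP190 stayed between 0.29 and 0.32 when 1 array was left out. BEAF+CP190 also lay above CTCF, by 0.50 (35.5% of rows), while SuHw+CP190 and CTCF overlapped. Both SuHw arrays lay below the other 10 arrays of the set, as in 11.9% of rows, and below all 16 other arrays of the series, as in 7.31%.

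**Figure D3:**
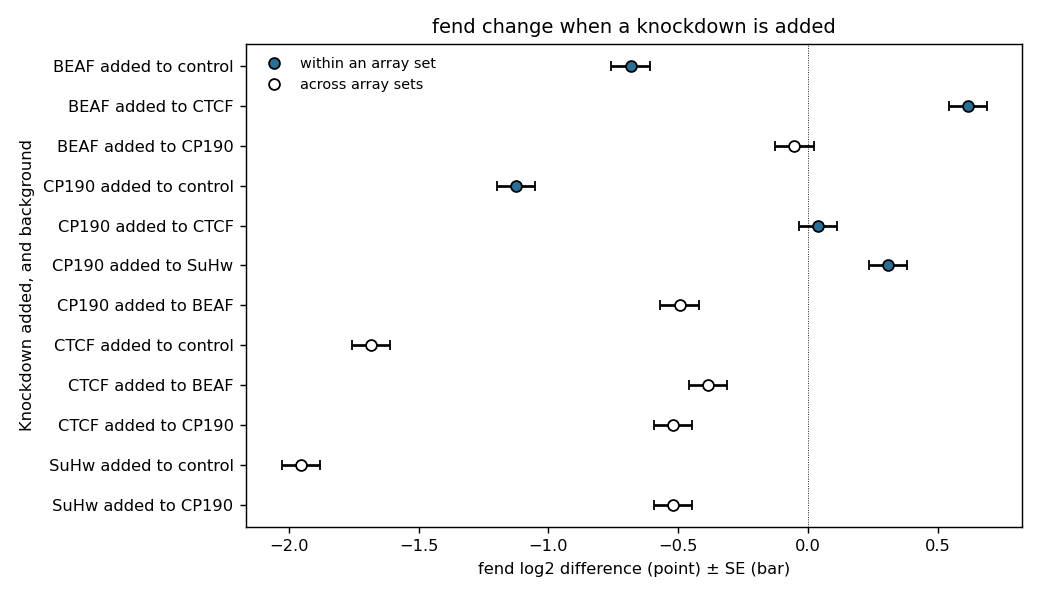
Points give the log2 difference of fend when a knockdown is added to control cells or to another knockdown (y axis names both), with bars for the SE; filled points stay within an array set and open points cross the sets. BEAF lies at -0.68 on control and at 0.61 on CTCF, and CP190 lies at -1.13 on control, 0.037 on CTCF and 0.31 on SuHw.

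The double knockdowns were compared with each other inside the second set. With BEAF as the shared knockdown, BEAF+CTCF lay above BEAF+CP190 by 0.11 on the log2 scale (SE 0.074), with no overlap (29.5% of rows). With CP190 shared, CTCF+CP190 and SuHw+CP190 each had a log2 difference of -0.47 from BEAF+CP190, with no overlap (27.7% and 29.6% of rows). Of the 500 like-signal rows, 5 and 3 had a lower difference in these comparisons. With CTCF shared, CTCF+CP190 had a log2 difference of -0.58 from BEAF+CTCF (30.5% of rows), and 12 of the 500 were lower. SuHw+CP190 had the same difference from BEAF+CTCF (-0.58, 35.6% of rows), though these share no knockdown. SuHw+CP190 and CTCF+CP190 overlapped and differed by -0.000275.

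Each double knockdown held more fend signal than its single differences from control would add up to. The double minus both singles plus control was 1.43 for SuHw+CP190, 1.30 for BEAF+CTCF, 1.16 for CTCF+CP190 and 0.63 for BEAF+CP190 on the log2 scale, each with an SE of 0.10. Every combination of single arrays gave a value above 0 for fend in each of the 4, as in 25.8%, 27.3%, 27.1% and 34.4% of rows, and in all 4 together in 11.7%. Of the 500 like-signal rows, 7, 11, 9 and 52 had a larger value. A set difference that is the same in all groups drops out of the first 3 of these sums but not out of that for BEAF+CP190, and a knockdown effect that differs by set stays in all of them. All 4 sums share the control arrays, and 3 of them the CP190 arrays.

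Rows whose pattern was most like that of fend were sought by Pearson's r over the 18 arrays, which share the 2 sets and the common control. FBtr0112918 had the highest r (0.961, Spearman's rho 0.909) and FBtr0082608 the next (0.952, rho 0.897), and neither is named in the sources used here. FBtr0112918 had mean log2 signals of 8.18 in control, 7.46 with BEAF and 6.91 with CP190. In the second set it was at 7.15 with BEAF+CTCF, 6.88 with BEAF+CP190, 6.20 with SuHw+CP190, 6.12 with CTCF+CP190, 6.21 with SuHw and 5.99 with CTCF. It had the order of fend at its upper 5 groups, while its lowest group was CTCF and not SuHw. With each set centred on its own mean, r was 0.914 for FBtr0112918 and 0.886 for FBtr0082608. Most opposite were FBtr0070588 (r = -0.938, rho -0.856), which was at 9.61 in control and 11.07 with SuHw, and FBtr0087501 (r = -0.932, rho -0.903), at 11.72 and 12.41. In all, 58 rows (0.349%) had r above 0.9 and 14 (0.0842%) below -0.9. With each set centred these counts were 15 and 1.

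Over the 12 arrays of the second set the rows most like fend were others, FBtr0081242 (r = 0.961) and FBtr0078474 (r = 0.959), with r of 0.566 and 0.104 over all 18 arrays. FBtr0078859 (r = -0.964) and FBtr0072288 (r = -0.962) were most opposite there. FBtr0078474 was at 6.54 and 6.66 in the doubles with BEAF and 5.21 to 5.93 in the other second-set groups, but at 5.55 in control, 5.57 with BEAF and 5.51 with CP190. Like fend it was lowest with SuHw and highest within that set in the doubles with BEAF. Its means in control and the single knockdowns (5.21 to 5.57) lay near the lower quartile of the arrays (5.30 to 5.52). With no detection call, an order among such low signals is uncertain.

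**Figure D4:**
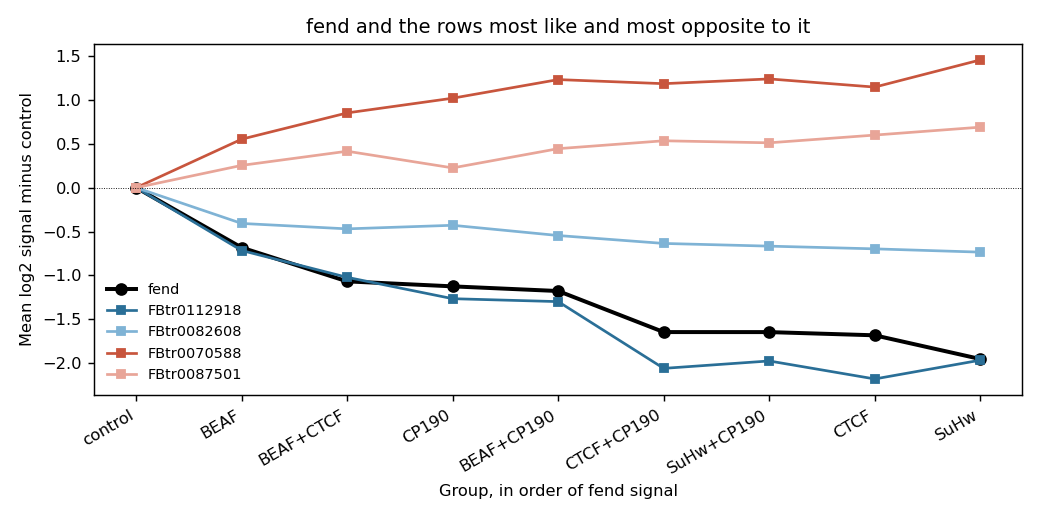
Lines give the mean log2 signal minus that of control (y axis) in the 9 groups, ordered by the fend signal (x axis), for fend in black, for the rows with the highest Pearson's r with it over 18 arrays (FBtr0112918 and FBtr0082608, blue) and for those with the lowest (FBtr0070588 and FBtr0087501, red). FBtr0112918 runs close to fend down to the doubles with BEAF and FBtr0082608 has the same direction with a smaller range.

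Of the other 15 rows that the gene table pairs with 1 symbol, the fatty acid transporter gene Fatp1 had the highest Pearson's r with fend over the 18 arrays (0.825) and kis, which encodes a chromatin remodeller, the lowest (-0.786). By Spearman's rho these ranks were not kept: CG16974 (r = 0.822) had 0.789 against 0.692 for Fatp1, and the phosphate transporter gene NaPi-III had -0.589 against -0.482 for kis. Fatp1 had mean log2 signals of 12.19 in control, 11.97 with BEAF and 11.43 with SuHw. Unlike fend, Fatp1 had a slightly higher mean with CP190 than with BEAF. For kis the means were 12.19 in control, 13.17 with CTCF, its highest group, and 12.93 with SuHw. Within the second set the kis mean was lowest with SuHw, as was that of fend. For kis, however, SuHw+CP190 (12.93) and CTCF+CP190 (12.94) were at nearly the same level. Over those 12 arrays r between kis and fend was 0.192. The pattern of kis was thus not opposite to that of fend within that set. With each set centred, the highest r was that of the histone gene His4r (0.643, against -0.456 over the 18 arrays). Then r was 0.564 for CG16974, 0.549 for Fatp1 and -0.370 for kis. Below kis lay Uba1 (-0.579), LanA (-0.578), sle (-0.577) and Wdr24 (-0.550). The gene table paired none of the 20 listed genes of axon guidance and muscle targeting with a row as its only symbol. Their rows were not analysed here.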

How the data were processed

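The authors deposited 1 table of log2 signals, 1 value per transcript row and array. They used RMA and Partek per the submitters' processing notes, which state no version. RMA subtracts background, makes the distributions of the arrays alike and merges the probes of a transcript. An overall shift of an array is thereby largely removed. In the deposited values the array medians still ran from 9.27 to 9.33, and the lower quartiles from 5.30 to 5.52. Columns were matched to samples by their identifiers and groups came from the titles. The deposited log2 values, which run from 2.75 to 15.77, were analysed as they stand, unfiltered.

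Version 3.58.1 of limma in R 4.3.3 (9 residual and 3.68 prior degrees of freedom) gave the group means of all rows over 18 arrays. On simulated data the fit returned a difference that had been put in, while its standard errors were not checked there. For fend only differences and standard errors were taken from the limma fit. Its residual SD was 0.072, against a median of 0.088 over all rows. In all 33 comparisons of fend were computed. Non-overlap means that both arrays of one group lie beyond both of the other. Its background is the share of the 16637 rows that do the same in the same direction. Names came from synonyms in the RefSeq table (16 rows with 1 symbol, 28 with several, 16593 with none).

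The gene, the lists and the rules were chosen with earlier results of these data known. The named rows were the 2 highest and 2 lowest in correlation with fend over 18 and over 12 arrays, up to 2 like-signal rows lower than fend, and the named genes with the highest and lowest correlation. Whether equal replicate numbers pair arrays was checked over all rows: replicate 1 minus replicate 2 correlated between groups at -0.20 to 0.45 (median 0.028, 36 pairs of groups), and no label says that a number marks a shared day, so no block was used. Alternatives were quantile normalization, median centring, a replicate block, a prior trend, fitting only the groups compared, leaving out each array, other window sizes and other measures of likeness.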

Additional observations from a re-analysis of the deposited data

Results flagged for a closer look

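The fend difference with BEAF knockdown had one direction against control and the other on CTCF, and that with CP190 knockdown one against control and the other on SuHw. With BEAF, both arrays were below both control arrays (log2 difference -0.68), and both BEAF+CTCF arrays were above both CTCF arrays (0.61), which differ by 1.30. This combination of directions was found in 10.6% of all rows and in 48 of the 500 like-signal rows (9.6%). With CP190, both arrays were below both control arrays (-1.13), and both SuHw+CP190 arrays were above both SuHw arrays (0.31), which differ by 1.43. That combination was found in 10.5% of all rows and in 41 of the like-signal rows (8.2%). No such turn was seen on the other backgrounds: CTCF+CP190 and CTCF arrays overlapped (0.037), BEAF+CP190 minus BEAF was -0.49, and BEAF+CP190 minus CP190 was -0.053, these last 2 across the sets. The differences were not tested, since fend was chosen with these values known. In both cases the first comparison lies in the first array set and the second in the second set, so background and set cannot be told apart.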

How the results depend on the processing

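With rescaled values, 65 of 66 fend differences moved by less than the spread between replicates (0.072). The exception was the BEAF+CP190 sum, 0.63 as reported and 0.55 with median centring. Quantile normalization moved no difference by more than 0.071. The replicate block, the prior trend and fitting only the groups compared cannot move a difference in this balanced design and change its SE only (BEAF minus control -0.68, SE 0.077 with the replicate block). The numbers were not shown to pair the arrays. With 1 array left out, 40 of 148 differences moved by more than that spread, all of them without a control or a CTCF+CP190 array. The differences from control then ran from -0.77 to -0.60 (BEAF), -1.21 to -1.04 (CP190), -1.77 to -1.60 (CTCF), -2.04 to -1.87 (SuHw), -1.27 to -1.09 (BEAF+CP190), -1.16 to -0.98 (BEAF+CTCF), -1.76 to -1.53 (CTCF+CP190) and -1.73 to -1.56 (SuHw+CP190). The sums of double minus singles plus control ran from 0.54 to 0.72 (BEAF+CP190), 1.21 to 1.39 (BEAF+CTCF), 1.05 to 1.28 (CTCF+CP190) and 1.35 to 1.52 (SuHw+CP190). CTCF+CP190 minus CTCF ran from -0.078 without CTCF+CP190 replicate 2 to 0.15 without replicate 1, and CTCF+CP190 minus CP190 from -0.64 to -0.41. Over the mean of the 8 knockdowns 4.2% of like-signal rows lay below fend, and 2.10% of all rows, since rows of other signal levels enter. Of the 10 rows most like fend, 7 were among the 10 most like over 9 group means, 1 by Spearman's rho, 1 with each set centred and 0 over the second set. The identity of the most like rows thus depends on the measure, and the cause was not tested.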
